A study of Mus musculus with 6 samples.

Results

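The genes described here encode heterogeneous nuclear ribonucleoproteins (hnRNPs), the pre-mRNA processing factors of the Prpf series, the SR proteins (Srsf), the proteins of the small nuclear ribonucleoproteins (Snrp) and the subunits of splicing factor 3a and 3b (Sf3a and Sf3b). Members were chosen by gene symbol alone, from probe sets that carry exactly 1 symbol. This gave 171 of the 45101 probe sets on the array and 59 of the 18194 genes with such a probe set. The Hnrnp family had 58 probe sets of 19 genes, the Prpf family 32 of 12, the Srsf family 33 of 10, the Snrp family 18 of 9, and Sf3a with Sf3b 30 of 9. All 171 were tested, with no filter on low values.

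Expression was measured on 6 Affymetrix mouse arrays, 3 of OVX and 3 of OVX + E2. Mice of both groups were female C57BL/6 animals bought at 3 months of age and ovariectomized at 4 months. OVX mice carried placebo pellets, and OVX + E2 mice carried pellets releasing 0.18 mg of estradiol (E2) over 60 days. Ovary-intact mice were not among the arrays, so the comparison is that of E2 with placebo in animals without ovaries. The labels and methods do not state whether the 3 arrays of a group came from 3 animals. The p-values therefore describe array-to-array spread, part or all of which could be technical.

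Introns are removed from pre-mRNA by the spliceosome, which is built from small nuclear ribonucleoproteins (snRNPs) that assemble on each intron. The Snrp genes encode the ring of Sm proteins and proteins particular to single snRNPs, and Sf3a and Sf3b are the parts of the U2 snRNP that hold it at the branch point. Prpf proteins act at several steps, many of them in the tri-snRNP, and Prpf19 is a ubiquitin ligase at the centre of the complex that accompanies activation of the spliceosome. SR proteins bind exonic enhancers and mostly favour the use of an exon, whereas hnRNPs coat nascent RNA and often oppose it. In skeletal muscle, alternative splicing sets the isoforms of troponins, tropomyosin and titin.

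Tissue names differed between sources: the sample labels name left ventricle, and the study names soleus muscle. Marker genes were placed by the level of their brightest probe set among all probe sets. Of 21 genes restricted to skeletal muscle, 20 were in the top 5% of probe sets. Of 16 heart-restricted genes 1 was, Sln, the sarcolipin gene, which slow skeletal muscle also uses. The atrial and ventricular heart genes Myh6, Nppa, Tnni3 and Myl7 stood at the 66.1, 37.4, 29.8 and 30.4 percentile of all probe sets. Both arrays numbered 3 stood apart. They lay at opposite ends of the first principal component (−25.6 for OVX and 24.8 for OVX + E2, against −4.66 to 3.32 for the other 4), which held 48.4% of the variance. The mean log2 level of 10 fast-fibre markers in OVX replicates 1 to 3 was 12.85, 12.98 and 13.55, against 13.03, 12.51 and 11.23 for OVX + E2. Myh4, the fastest myosin heavy chain, was at 7.78 in OVX + E2 replicate 3 and at 12.60 to 13.90 on the other 5 arrays. The part of fibre makeup in the results below was not tested, and results are also given without both arrays numbered 3. In whole muscle, fewer cells of a type and less RNA per cell cannot be told apart. The measured genes of fat (5), endothelium (7), macrophages (8), red blood cells (3) and nerve (5) included none at an unadjusted p under 0.05. All 7 endothelial genes nevertheless had a lower mean in OVX + E2. So did 19 of the 21 skeletal muscle genes, 7 of them at that p (13.3% of all genes), and all 10 fast-fibre markers, 2 at that p. Most of these genes are bright. At a mean level of 8 or more, 90.4% of all probe sets had a lower mean and 32.8% were lower at that p. The fast-fibre markers other than Myoz1 are also among the 21, and Tnni2 and Tnnc2 are called in both lists. Of 9 slow-fibre markers 4 had a lower mean, none at that p. Of the 16 heart genes 2 were higher at that p (4.62% of all genes).

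The first comparison asked how the splicing genes stood after E2 treatment. Values are log2 units as deposited, differences are OVX + E2 minus OVX, and p-values are from limma. Of the 171 member probe sets, 141 (82.5%) had a difference below 0, against 52.3% of all probe sets. At an unadjusted p under 0.05, 35 (20.5%) were lower in OVX + E2, against 9.43% of all, and 5 (2.92%) were higher, against 4.35% of all. In 44 members (25.7%) the 3 OVX + E2 arrays were all below the 3 OVX arrays, against 11.4% of all probe sets, and in 5 they were all above, against 9.76%. The median member difference was −0.08, and that of all probe sets −0.0049. None reached the study's unadjusted threshold of 0.001 in limma, which 0.213% of all probe sets did, and the smallest adjusted p was 0.308. With 3 arrays per group, the exact permutation test cannot go below 0.10.

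**Figure D1:**
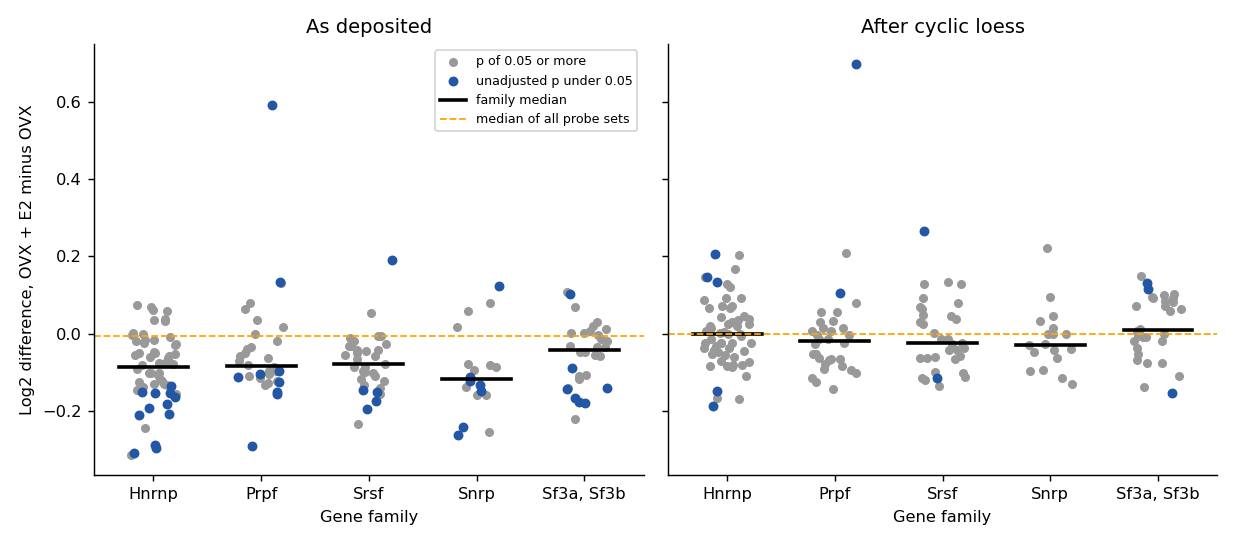
Each point is 1 member probe set, placed by its log2 difference (OVX + E2 minus OVX) within its family, as deposited (left) and after cyclic loess (right), with blue for an unadjusted p under 0.05, black bars for family medians and a dashed line for the median of all probe sets. The medians as deposited lie between −0.12 (Snrp) and −0.04 (Sf3a and Sf3b) and between −0.03 and 0.01 after cyclic loess, while 1 Prpf19 probe set stands above the others at 0.59 and 0.70.

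All 5 families had a median below 0, in a narrow range, with brightness not yet taken into account. The Snrp median was −0.12, with 14 of 18 probe sets below 0, 6 lower at an unadjusted p under 0.05 and 1 higher. For Hnrnp the median was −0.09, with 50 of 58 below 0, 12 lower and 0 higher. In the Prpf family the median was −0.08, with 25 of 32 below 0, 7 lower and 2 higher. Srsf probe sets had a median of −0.08, with 31 of 33 below 0 but only 4 lower and 1 higher. Sf3a and Sf3b together had a median of −0.04, with 21 of 30 below 0, 6 lower and 1 higher. With 1 probe set per gene, the one that varied most, 51 of the 59 genes were below 0, against 54% of all genes. Of these, 21 were lower at an unadjusted p under 0.05, against 13% of all genes, and 2, Prpf19 and Prpf38b, were higher, against 6.01%. Lower genes numbered 6 of 19 for Hnrnp, 5 of 12 for Prpf, 2 of 10 for Srsf, 4 of 9 for Snrp and 4 of 9 for Sf3a and Sf3b. Hnrnpab, described below, is not among these 6. Its most variable probe set, 1426114_at, was at −0.31 (limma, unadjusted p = 0.598), and its lower calls came from other probe sets.

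Over the whole array, bright probe sets were lower in OVX + E2 more often than dim ones. At a mean level of 8 or more, 90.4% of all probe sets were below 0 and 32.8% were lower at an unadjusted p under 0.05. Of the 96 members in that range 83 (86.5%) were below 0 and 26 (27.1%) were lower. Under a mean level of 8, 43.3% of all probe sets were below 0 and 3.89% were lower. Of the 75 members in that range 58 (77.3%) were below 0 and 9 (12%) were lower. Set against the median of all probe sets of the same 1-unit range of brightness, 92 of the 171 members were lower. By family these were 28 of 58 for Hnrnp, 22 of 32 for Prpf, 20 of 33 for Srsf, 10 of 18 for Snrp and 12 of 30 for Sf3a and Sf3b. In that order, the median differences from the range median were 0.006, −0.036, −0.024, −0.030 and 0.030. The order of the families thus differed from that of their medians as deposited. Between 7 and 8, 40 of 49 members were below the range median (−0.08 for members and −0.02 for all). Between 9 and 10, 8 of 32 were below the range median (−0.10 and −0.15). Most of the lower members were bright, and bright members were lower no more often than other bright probe sets. As deposited, dim members were lower more often than other dim probe sets. Below the median of their range lay 34 of the 96 bright members and 58 of the 75 dim ones.

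**Figure D2:**
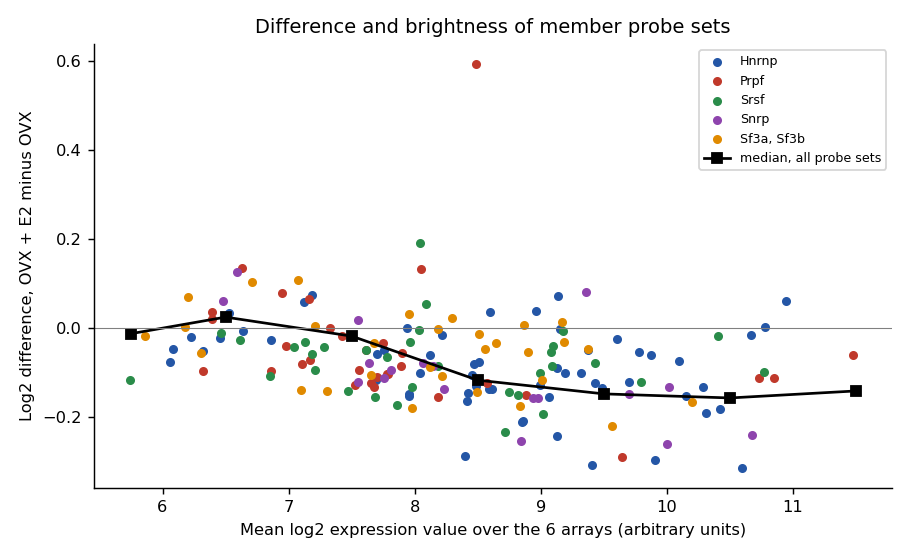
Log2 differences (OVX + E2 minus OVX) of the member probe sets are plotted against their mean log2 level, with the median of all probe sets in each 1-unit range. Between levels of 8 and 12 the median of all probe sets runs from −0.12 to −0.16, and 34 of the 96 members there lie below it.

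Normalization between arrays moved this result further than any other choice. After cyclic loess, which evens out differences that follow brightness, 96 of the 171 were below 0 (51.2% of all probe sets), 4 were lower (4.02% of all) and 8 higher (3.57% of all) at an unadjusted p under 0.05. After quantile normalization 83 were below 0 (47% of all), 3 were lower (3.33% of all) and 11 higher (4.46% of all). With either of these normalizations the share of members called lower was thus below that of all probe sets. That also held under a mean level of 8. After cyclic loess 2 of the 75 dim members were lower, against 1472 of 36458 dim probe sets, and after quantile normalization 1, against 1257. Below 0 were 55 of the 75 after cyclic loess, against 18399 of all dim probe sets, and 50 after quantile normalization, against 17152. The 4 that were lower after cyclic loess were both leading probe sets of Hnrnpab and 1 each of Srsf10 and Sf3b3. The 8 that were higher belonged to Hnrnpk (3 probe sets), Sf3b4 (2), Prpf19, Prpf38b and Srsf2. Without both arrays numbered 3, 131 members were below 0, 23 were lower (7.54% of all) and 2 higher (2.1% of all). None of the members, and 0.082% of all probe sets, was then at 0.001 in limma.

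Promoter sequences are shown for 3 genes, chosen after their values were seen: Hnrnpab, with both leading probe sets lower also after cyclic loess, and Prpf19 and Srsf2, each with a probe set that was higher as deposited and after cyclic loess. They come from RefSeq on build GRCm38.p6, 250 bases before to 50 after each start, and capitals mark matches on either strand to the motifs named below them. Hnrnpab lies on the minus strand at chr11:51606832-51607131, Prpf19 on the plus strand at chr19:10894981-10895280 and Srsf2 on the minus strand at chr11:116853045-116853344.
Hnrnpab: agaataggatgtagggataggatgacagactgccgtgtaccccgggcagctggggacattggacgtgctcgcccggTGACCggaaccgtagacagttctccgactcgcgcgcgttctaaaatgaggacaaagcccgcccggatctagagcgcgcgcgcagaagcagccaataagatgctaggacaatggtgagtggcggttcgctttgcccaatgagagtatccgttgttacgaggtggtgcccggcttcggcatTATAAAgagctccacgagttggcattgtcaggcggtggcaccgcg
Prpf19: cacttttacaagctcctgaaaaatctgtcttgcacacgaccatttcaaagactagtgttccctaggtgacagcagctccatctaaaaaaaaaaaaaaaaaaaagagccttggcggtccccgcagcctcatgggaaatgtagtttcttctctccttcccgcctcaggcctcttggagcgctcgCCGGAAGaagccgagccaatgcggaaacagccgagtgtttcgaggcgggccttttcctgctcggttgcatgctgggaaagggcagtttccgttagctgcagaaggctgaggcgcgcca
Srsf2: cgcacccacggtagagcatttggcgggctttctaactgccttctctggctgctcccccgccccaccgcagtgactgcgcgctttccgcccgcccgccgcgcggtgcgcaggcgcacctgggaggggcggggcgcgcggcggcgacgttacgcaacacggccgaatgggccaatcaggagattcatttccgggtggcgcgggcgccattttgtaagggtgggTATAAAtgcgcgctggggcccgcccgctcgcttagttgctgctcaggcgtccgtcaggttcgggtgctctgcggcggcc

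The Hnrnpab window holds 1 GGTCA, the arm of the estrogen response element, read on the other strand, and the letters TATAAA just past the start. The Srsf2 window holds TATAAA before the start, and the first Prpf19 window holds CCGGAAG, the core bound by ETS factors. A second Prpf19 start, at chr19:10898395-10898694, has none of these letters. The table had promoters for 53 of the 59 member genes. The full estrogen response element GGTCANNNTGACC was in 0 of 53, against 0.0740% of the 27025 genes in the table. GGTCA, which the full element contains, was in 25 (47.2%), against 43.6% of all genes. CCGGAAG was in 19 (35.8%), against 9.93% of all genes. The 19 were Hnrnpd, Hnrnpf, Prpf19, Prpf3, Prpf4b, Prpf6, Sf3a1, Sf3a2, Sf3a3, Sf3b2, Sf3b3, Sf3b6, Snrpb2, Snrpc, Snrpe, Snrpg, Srsf11, Srsf4 and Srsf5. Genes with and without a probe set called lower in OVX + E2 are among them. TATAAA was in 6 (11.3%), against 15.7% of all. These are matches of letters in a short window, and no match says only that the letters are not in it.

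Hnrnpab, an RNA-binding protein that shuttles between nucleus and cytoplasm, had 7 probe sets, and 6 of them were below 0. Probe set 1415914_at read 10.01, 9.99 and 10.17 in OVX against 9.79, 9.81 and 9.68 in OVX + E2. Each OVX + E2 array was below every OVX array, with a difference of −0.30 ± 0.062 (SE, unadjusted p = 0.00186, adjusted p = 0.308), the smallest p among the members. The second, 1448144_at, read 8.58, 8.41 and 8.64 in OVX against 8.29, 8.30 and 8.17 in OVX + E2, a difference of −0.29 ± 0.069 (SE, unadjusted p = 0.00401). These 2 stayed at −0.15 (unadjusted p = 0.0200) and −0.19 (unadjusted p = 0.0126) after cyclic loess, and both were at −0.20 without both arrays numbered 3. Another, 1455855_x_at, was at 10.56, 10.38 and 10.59 in OVX against 10.32, 10.33 and 10.34 in OVX + E2 (−0.18, unadjusted p = 0.0171), and its difference was −0.04 after cyclic loess. Without OVX replicate 2, 1448144_at and 1455855_x_at passed the 0.001 threshold, at unadjusted p = 6.75e-04 and unadjusted p = 8.23e-04.

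Probe set 1426114_at of Hnrnpab behaved unlike these. It was chosen after its values were seen. It read 11.23, 11.16 and 9.87 in OVX against 11.01, 11.11 and 9.20 in OVX + E2. Both arrays numbered 3 were low, one in each group, so the treatment difference of −0.31 ± 0.57 (SE, unadjusted p = 0.598) was within the spread between arrays, and it turned to 0.30 without OVX + E2 replicate 3. The 4 other arrays averaged 11.13 and the arrays numbered 3 averaged 9.54, which is 3.01-fold less. Its gap of 1.14 between the lowest of the 4 and the higher of the numbered-3 arrays ranked 1 among all 45101 probe sets, and the next, for the myelin gene Mbp, was 0.49. The leading Hnrnpab probe sets did not share this step.

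**Figure D3:**
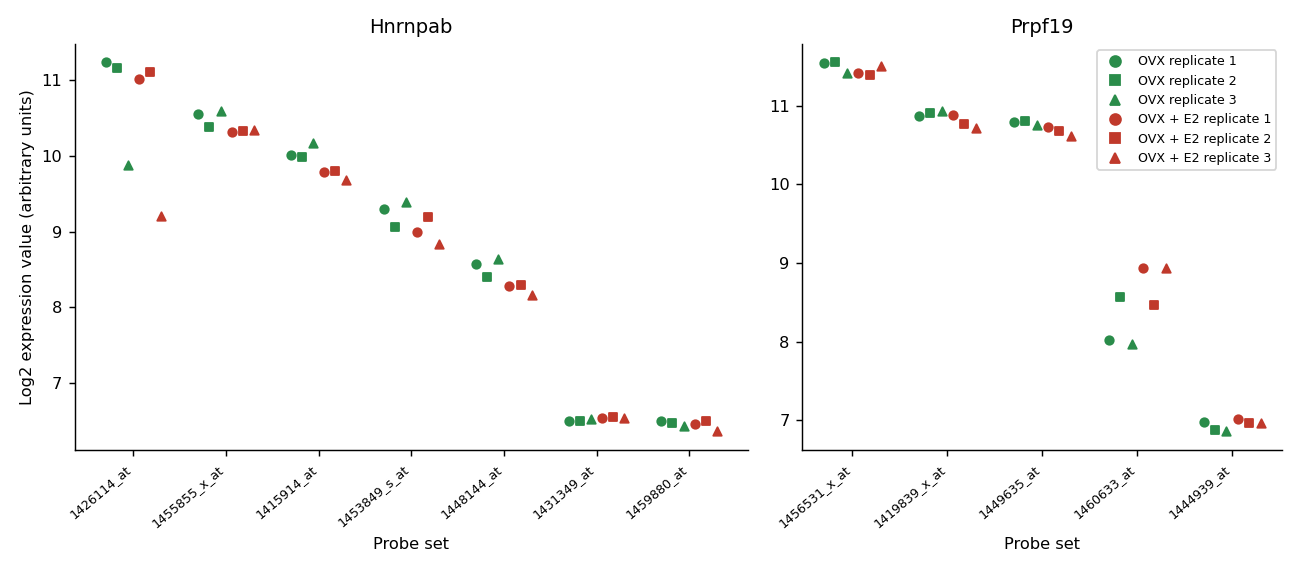
Log2 values of the Hnrnpab and Prpf19 probe sets on each of the 6 arrays are shown, with OVX and OVX + E2 in different colours. Hnrnpab 1426114_at drops to 9.87 and 9.20 on both arrays numbered 3, and Prpf19 1460633_at is the probe set that reads higher in OVX + E2.

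Among the other hnRNP genes, Hnrnpd, which encodes the AU-rich element binding protein AUF, stood next. Probe set 1425142_a_at was at 9.06, 8.92 and 8.89 in OVX against 8.77, 8.74 and 8.73 in OVX + E2, so that the groups did not overlap (−0.21 ± 0.051, SE, unadjusted p = 0.00402). A second Hnrnpd probe set was at −0.15 (unadjusted p = 0.0192). Hnrnpa1, a repressor of exon inclusion, read 8.44, 8.499 and 8.55 in OVX against 8.37, 8.31 and 8.31 (−0.16 ± 0.042, SE, unadjusted p = 0.00570). Hnrnpc, which binds uridine tracts of nascent transcripts, read 10.45, 10.31 and 10.45 against 10.19, 10.25 and 10.20 (−0.19 ± 0.050, SE, unadjusted p = 0.00641). In all of these every OVX + E2 array lay below every OVX array. After cyclic loess their differences were −0.09, −0.06 and −0.04, with none at p under 0.05. Hnrnpa1 and Hnrnpc had 3 probe sets each, all below 0, of which only the 1 given here was lower at that threshold as deposited. The brightest of Hnrnpa1, 1455305_x_at, was at −0.09 as deposited (limma, unadjusted p = 0.275) and at 0.0078 without both arrays numbered 3.

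The remaining lower hnRNP genes are named to account for every call, after their values were seen. Hnrnpul1 read 9.39, 9.62 and 9.66 in OVX against 9.33, 9.32 and 9.09 in OVX + E2 (−0.31, unadjusted p = 0.0118). Both probe sets of Hnrnpul2 were lower, by differences of −0.14 and −0.15, as were 1 probe set of Hnrnpa2b1 (−0.21, unadjusted p = 0.0235) and 1 of Hnrnpk (−0.15, unadjusted p = 0.0187). For Hnrnpk, the poly(C)-binding hnRNP, probe sets differed in sign: 1454692_x_at was at 9.16, 9.16 and 8.99 in OVX against 9.18, 9.19 and 9.15 in OVX + E2 (0.07, unadjusted p = 0.238). After cyclic loess 3 Hnrnpk probe sets were higher, with differences of 0.13 to 0.21. The hnRNP probe sets with a difference above 0 as deposited were small in size: the smallest p in that direction belonged to Hnrnpk, Hnrnph1 (0.06), Hnrnpab 1431349_at (0.03) and Hnrnpr (0.07).

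Prpf19 gave the largest difference among the members, and its probe sets disagreed. Probe set 1460633_at read 8.03, 8.57 and 7.97 in OVX against 8.94, 8.47 and 8.94 in OVX + E2. The groups overlapped, since OVX replicate 2 was above OVX + E2 replicate 2, and the difference was 0.59 ± 0.19 (SE, unadjusted p = 0.0154, exact permutation p = 0.2). It was 0.70 after cyclic loess (unadjusted p = 0.00943) and 0.41 without both arrays numbered 3 (unadjusted p = 0.0985). Brighter probe sets of the same gene pointed the other way. Probe set 1449635_at was at 10.79, 10.81 and 10.76 in OVX against 10.74, 10.68 and 10.61 in OVX + E2, with no overlap (−0.11, unadjusted p = 0.0371). For 1419839_x_at the difference was −0.11 (unadjusted p = 0.0585) and for 1456531_x_at −0.06 (unadjusted p = 0.279). These 3 turned to 0.03, 0.03 and 0.08 after cyclic loess. The fifth, 1444939_at, was dim, at 6.86 to 7.02, with a difference of 0.08 (unadjusted p = 0.126). With the highest-mean probe set in place of the most variable, no member gene was higher (4.62% of all genes) in limma at an unadjusted p under 0.05, 52 of the 59 were below 0 (55% of all), and 17 were lower (13.3% of all).

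Of the 32 Prpf probe sets 25 were below 0, and 7 were lower at an unadjusted p under 0.05. Prpf8, the large U5 protein at the catalytic centre, read 9.88, 9.57 and 9.91 in OVX against 9.55, 9.58 and 9.36 in OVX + E2 (−0.29 ± 0.10, SE, unadjusted p = 0.0249). OVX replicate 2 lay within the OVX + E2 values there. Prpf6, a bridge of the tri-snRNP, read 9.02, 8.87 and 8.996 against 8.85, 8.81 and 8.76 (−0.15, unadjusted p = 0.0226), with no overlap. Prpf40b, related to a U1 snRNP factor, was close to constant within groups, at 7.59, 7.61 and 7.61 against 7.49, 7.51 and 7.52 (−0.10, unadjusted p = 0.0250). Prpf18, a second-step factor (−0.13, unadjusted p = 0.0343), and 1 probe set of the kinase Prpf4b were also lower, and all 6 Prpf4b probe sets were below 0. Prpf38b had calls in both directions: 1452869_at was at −0.10 (unadjusted p = 0.0290), and the dimmer 1455016_at, at 6.58, 6.59 and 6.53 against 6.71, 6.74 and 6.65, was at 0.13 (unadjusted p = 0.0144). The latter stayed at 0.10 after cyclic loess.

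SR proteins had 31 of 33 probe sets below 0 and few calls. Relative to each probe set's mean, the Srsf median was 0.04, 0.04 and 0.03 in OVX against −0.07, 0.10 and −0.09 in OVX + E2, so OVX + E2 replicate 2 was above all OVX arrays. In the other 4 families every OVX + E2 array had a median below every OVX array. Srsf1 and Srsf3, the classic SR proteins, had 7 of 7 and 6 of 6 probe sets below 0 and 0 at p under 0.05. Srsf1 1452430_s_at read 8.80, 8.73 and 8.98 in OVX against 8.73, 9.16 and 7.91 in OVX + E2, where replicate 2 was the highest array and replicate 3 the lowest. Srsf3 1416150_a_at likewise had its highest value, 9.32, in OVX + E2 replicate 2. Srsf5 read 10.78, 10.83 and 10.85 in OVX against 10.83, 10.88 and 10.43 in OVX + E2. Without OVX + E2 replicate 2 the Srsf median was −0.15, and without OVX + E2 replicate 3 it was −0.02.

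**Figure D4:**
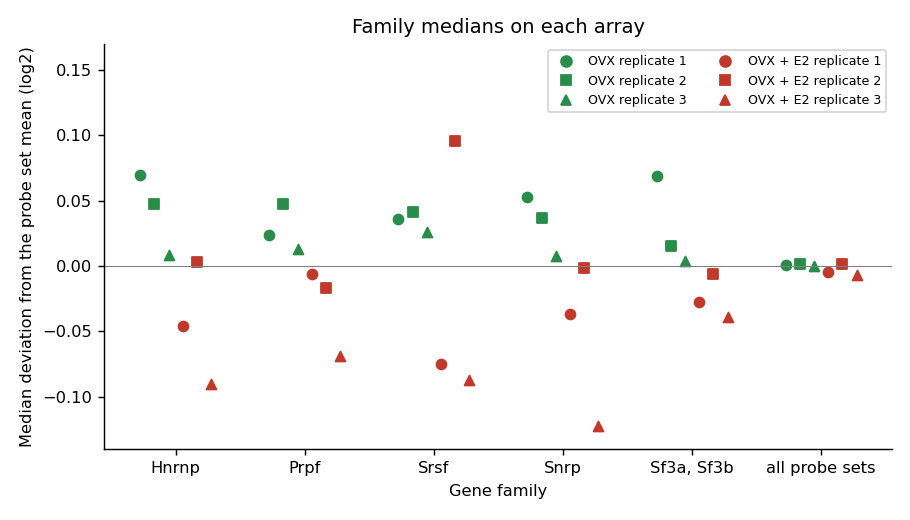
For each family and each array the point gives the median, over probe sets, of the log2 value minus that probe set's mean over the 6 arrays. OVX lies above OVX + E2 in every family but Srsf, where OVX + E2 replicate 2 is at 0.10, and the medians of all probe sets lie close to 0.

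Srsf10, a repressor that becomes active on dephosphorylation, read 7.91, 7.98 and 7.95 in OVX against 7.78, 7.85 and 7.68 in OVX + E2 (−0.17 ± 0.051, SE, unadjusted p = 0.0113). Its difference was −0.11 after cyclic loess (unadjusted p = 0.0447). Srsf4 read 8.79, 8.88 and 8.80 against 8.63, 8.69 and 8.71 (−0.15, unadjusted p = 0.0115), and was at −0.02 after cyclic loess. All 4 Srsf6 probe sets were below 0 and 2 were lower, at −0.19 (unadjusted p = 0.0254) and −0.15 (unadjusted p = 0.0397). Srsf2 went the other way. Its probe set 1427816_at read 7.98, 7.91 and 7.95 in OVX against 8.11, 8.07 and 8.23 in OVX + E2, with no overlap (0.19 ± 0.050, SE, unadjusted p = 0.00644). It was at 0.27 after cyclic loess (unadjusted p = 0.00200) and 0.15 without both arrays numbered 3 (unadjusted p = 0.0301). Of the 4 Srsf2 probe sets 2 were below 0, and 1427504_s_at was at −0.02.

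In the Snrp family, Snrpb had the largest differences among the calls. This core Sm protein gene was lower in 2 probe sets: 1419260_a_at read 10.13, 9.98 and 10.28 in OVX against 9.87, 10.02 and 9.72 in OVX + E2 (−0.26 ± 0.097, SE, unadjusted p = 0.0298), and 1437193_s_at was at −0.24 (unadjusted p = 0.0302). The first overlapped between groups and the second did not. Snrpe, another Sm protein, read 9.83, 9.84 and 9.66 against 9.64, 9.59 and 9.66 (−0.15, unadjusted p = 0.0341). Of the proteins particular to 1 snRNP, the U1 protein gene Snrpc had calls in both directions. The bright 1416197_at read 10.08, 10.04 and 10.12 against 9.96, 9.997 and 9.89 (−0.13, unadjusted p = 0.0182), and the dim 1444655_at read 6.51, 6.53 and 6.54 against 6.74, 6.58 and 6.64 (0.12, unadjusted p = 0.0328). The U2 protein gene Snrpa1 had all 3 probe sets below 0 and 2 lower, the first at −0.11 (unadjusted p = 0.0246). After cyclic loess Snrpe was at −0.0010 and Snrpc 1416197_at at 0.01. Snrpb2 (0.06), Snrpd3 (0.08 in the highest of 3 probe sets, −0.25 in the lowest) and Snrpn (0.02) had probe sets above 0, none at p under 0.05.

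Of the Sf3a and Sf3b probe sets, 1449138_at of Sf3b1 had the smallest p. This gene, for the largest Sf3b subunit, which contacts the branch point, read 10.27, 10.31 and 10.26 in OVX against 10.13, 10.12 and 10.10 in OVX + E2 there (−0.17 ± 0.036, SE, unadjusted p = 0.00220). The difference was −0.17 also without both arrays numbered 3, but −0.02 after cyclic loess. The other 3 Sf3b1 probe sets were at −0.14 (unadjusted p = 0.135), 0.01 (unadjusted p = 0.915) and −0.05 (unadjusted p = 0.460). Sf3a1 1449333_at read 8.07, 8.09 and 8.05 against 7.83, 7.995 and 7.85 (−0.18, unadjusted p = 0.0107), whereas the other 3 Sf3a1 probe sets were between 0.0020 and 0.11. Sf3b2 had 7 probe sets, of which 3 were lower, such as 1433461_at (−0.14, unadjusted p = 0.0230), and the dim 1453123_at was higher (0.10, unadjusted p = 0.0454). Sf3b3 1430075_at read 7.10, 7.29 and 7.12 against 7.08, 7.0006 and 7.01 (−0.14, unadjusted p = 0.0454) and was at −0.15 after cyclic loess (unadjusted p = 0.0281). Both Sf3b4 probe sets were above 0 as deposited, at 0.01 and 0.02, and reached 0.13 and 0.12 after cyclic loess. Single probe sets of Sf3b5 (0.07) and Sf3b6 (0.03) were above 0.

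**Figure D5:**
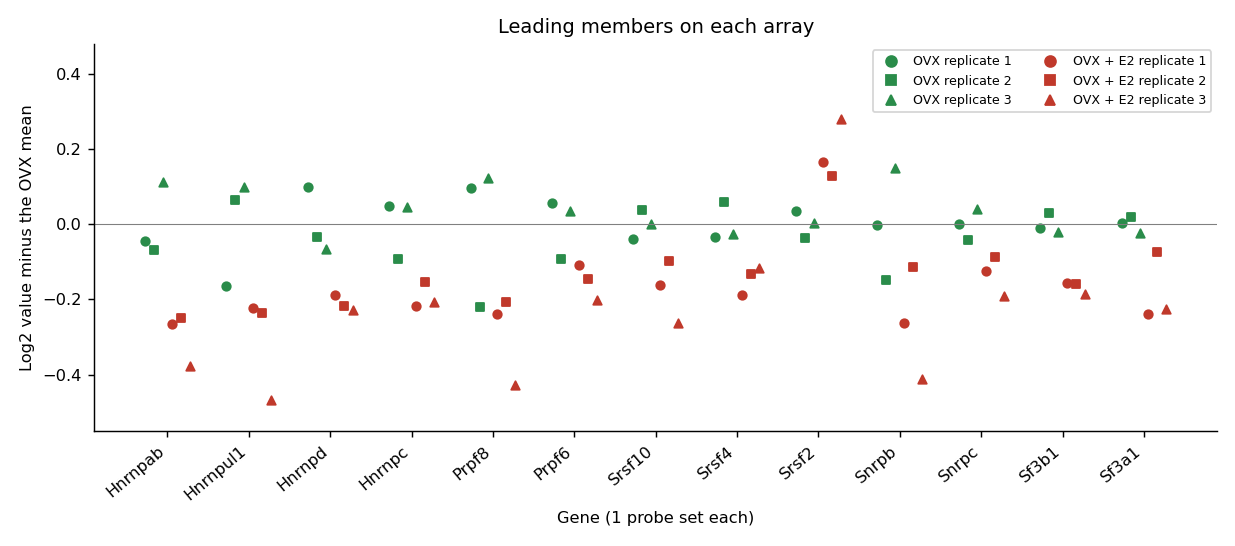
Log2 values on each array, minus the OVX mean of the same probe set, are shown for 13 genes chosen after their values were seen. Each gene is shown by its probe set with the smallest p. OVX + E2 arrays lie below OVX for Hnrnpd, Hnrnpc and Sf3b1 without overlap and overlap with OVX for Prpf8 and Snrpb. Of the 13, only Srsf2 lies above OVX. Prpf19 and Prpf38b, whose probe sets with the smallest p were also higher in OVX + E2, are not shown here.

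Over the members, 43 genes had more than 1 probe set. In 23 of them all probe sets were below 0, and in 19 they had both signs. A probe set was lower at an unadjusted p under 0.05 in 26 genes and higher in 5, and 4 genes (Prpf19, Prpf38b, Sf3b2 and Snrpc) were in both counts. Of all genes, 16.8% had a lower probe set and 7.58% a higher one, but members had more probe sets, 2.90 per gene on average against 1.92. Among genes with more than 1 probe set, 20 of the 43 members (46.5%) and 24.9% of all had a lower one. In the remaining 32 genes no probe set passed in either direction. In Prpf38b, Sf3b2 and Snrpc the higher probe set was the dimmer one, at a mean under 7.

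Splicing genes outside these families were read from lists, with 1 probe set per gene. Of 130 measured genes 105 were below 0 (54% of all genes), with a median of −0.09 against −0.01 for all genes. At an unadjusted p under 0.05, 32 were lower (13% of all genes) and 1 was higher (6.01% of all genes). After cyclic loess 6 were lower (5.06% of all genes) and 5 higher (4.6% of all genes), which is not above the shares of all genes. Factors of the U1 and U2 snRNPs and the 3′ splice site had 15 of 16 genes below 0 and 7 lower, led by the branch point binding protein Sf1 (−0.28, unadjusted p = 0.00180) and Puf60 (−0.19, unadjusted p = 0.00664). Sf1 read 8.99, 9.04 and 9.08 in OVX against 8.78, 8.84 and 8.65 in OVX + E2. Among SR-related proteins and their kinases 17 of 19 were below 0 and 4 lower. Son, a scaffold of nuclear speckles, read 10.10, 10.20 and 10.38 against 9.89, 9.88 and 9.75 (−0.39, unadjusted p = 0.00155), and all 7 of its probe sets were below 0. Sf1, Puf60 and Son were at −0.15, −0.05 and −0.24 after cyclic loess.

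The lists around Prpf19 and Prpf8 had 0 higher genes. Of all genes, 54% were below 0, 13% were lower and 6.01% higher. Of the Prp19 complex and catalytic step factors 19 of 23 were below 0 and 4 lower, led by Slu7 (−0.14, unadjusted p = 0.00896) and Dhx16 (−0.17, unadjusted p = 0.0104). Tri-snRNP and U5 factors had 8 of 11 below 0 and 3 lower, with Zmat2 (−0.11) and Txnl4a (−0.13) leading. For the LSm ring and minor spliceosome 10 of 14 were below 0 and 2 lower, Lsm6 (−0.16) and Lsm4 (−0.10). Exon junction and export factors had 9 of 12 below 0 and 3 lower, with Thoc3 (−0.13) and Casc3 (−0.12) in front. After cyclic loess Slu7, Dhx16, Lsm6, Thoc3 and Casc3 were at −0.02, −0.13, −0.02, −0.04 and −0.01. Zmat2, Txnl4a and Lsm4 were then above 0, at 0.03, 0.02 and 0.05. As deposited, 1 of 3 Zmat2 probe sets and 2 of 3 Txnl4a probe sets were below 0.

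Tissue splicing regulators had 27 of 35 genes below 0 (54% of all genes), 9 lower (13% of all genes) and 1 higher (6.01% of all genes). After cyclic loess 2 were lower (5.06% of all genes) and 2 higher (4.6% of all genes). Pcbp2, a poly(C)-binding protein, read 11.06, 11.09 and 11.13 in OVX against 10.91, 10.75 and 10.81 in OVX + E2 (−0.27 ± 0.052, SE, unadjusted p = 0.00114), and Nono was at −0.16 (unadjusted p = 0.00288). After cyclic loess Pcbp2 was at −0.13 and Nono at −0.01. All 3 Pcbp2 probe sets and 2 of 4 Nono probe sets were below 0 as deposited. The gene higher as deposited was Mbnl3, a dim probe set near 6.46 (0.12, unadjusted p = 0.0148). For several regulators known from muscle the difference was smaller without both arrays numbered 3. Rbfox1, which drives muscle exon choice, read 9.95, 10.06 and 10.81 in OVX against 9.92, 9.82 and 9.27 in OVX + E2 (−0.61 ± 0.26, SE, unadjusted p = 0.0488), and its difference was −0.14 without them. Celf1 went from −0.34 (unadjusted p = 0.0277) to −0.13, Mbnl1 from −0.36 (unadjusted p = 0.0594) to −0.09 and Rbm24 from −0.24 (unadjusted p = 0.286) to 0.10. Srpk3, a muscle SR protein kinase, was at −0.18 (unadjusted p = 0.0568) and went the other way, to −0.30 without them. Rbm20, the titin splicing regulator, was at −0.03 (unadjusted p = 0.545) and Ptbp1 at 0.10 (unadjusted p = 0.241).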

How the data were processed

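Expression was measured on 6 Affymetrix arrays, 3 of OVX and 3 of OVX + E2, which were grouped by treatment alone. The deposited values are log2 units. To make them, the authors corrected background, applied variance stabilization and combined probes by median polish, using R 2.14.2 per the labels. The scale compresses differences of dim probe sets. Arrays have no read depth, and their number limits the precision. Probe sets were named from the platform annotation. Another 16 probe sets carry a member symbol among several and were left out, Snrpd2 among them.

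All 45101 probe sets entered a two-sided limma fit (version 3.58.1, lmFit and eBayes, under R 4.3.3) without covariates, with Benjamini-Hochberg adjustment over all of them. Counts and medians used pandas 2.3.3. The script was tested on simulated data. Where 1 probe set per gene was needed, the one with the largest interquartile range was kept. Alternatives were quantile, cyclic loess and median centring, a brightness filter, a replicate block, an intensity trend, array weights, the highest-mean probe set, and leaving out arrays.

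Members and lists were chosen with earlier results of these data known. Named genes are Prpf19 and Hnrnpab, in each family up to 4 genes with the smallest p in each direction, genes with probe sets below an unadjusted p of 0.05 in both directions, up to 2 per direction in each other list, 7 muscle and tissue regulators (Mbnl1, Rbfox1, Rbm20, Rbm24, Srpk3, Celf1 and Ptbp1) and marker genes. Other members were named after their values were seen.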

Additional observations from a re-analysis of the deposited data

How the results depend on the processing

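The members were tested on 6 arrays, whose number limits the precision, and signal over background was not used here. At an unadjusted p under 0.05, the 35 lower members became 4 with cyclic loess, 3 with quantile normalization, 16 with an intensity trend, 23 without both arrays numbered 3, and 19 (without OVX + E2 replicate 3) to 43 (without OVX + E2 replicate 2) when 1 array was left out. Of the 35, the first 4 settings shared 4, 3, 16 and 16. The 5 higher members became 8, 11, 3 with median centring, 2 among probe sets brighter than the median, 2 without both arrays numbered 3 and 2 to 4 with 1 array left out. At 0.001 there were 0, and 0 to 2 with 1 array left out, the 2 without OVX replicate 2. Members without overlap, 44 lower and 5 higher, became 10 and 11 with cyclic loess (6.84% and 7.62% of all probe sets), 8 and 12 with quantile normalization (5.79% and 8.85% of all), 75 and 11 without both arrays numbered 3 (22.8% and 20.02% of all), and 49 to 83 and 5 to 9 with 1 array left out (14.4% to 18.6% and 13.5% to 16.2% of all), where fewer arrays make overlap rarer. The higher count was 3 with median centring and 1 among brighter probe sets.

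Same-numbered arrays deviated from their group means against each other (r of −0.13, −0.20 and −0.34). With 3 arrays per group, these values cannot tell whether the numbers pair the samples. With a replicate block 25 members were lower and 2 higher. For this block, the intensity trend, median centring, the brightness filter and single arrays left out, the shares of all probe sets called are not given. Those counts of calls therefore do not compare the members with the whole array.

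Median differences after cyclic loess and quantile normalization were −0.00097 and 0.014 for Hnrnp, −0.019 and −0.0033 for Prpf, −0.029 and −0.0023 for Snrp, 0.010 and 0.029 for Sf3a with Sf3b, and −0.0078 and 0.0056 for all members. For Srsf they were −0.024 and −0.0037. Array weights gave −0.074 for Sf3a with Sf3b. With 1 array left out the medians ran from −0.11 to −0.059 (Hnrnp), −0.092 to −0.052 (Prpf), −0.15 to −0.022 (Srsf), −0.13 to −0.083 (Snrp), −0.066 to −0.024 (Sf3a with Sf3b) and −0.11 to −0.048 (all members).

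With the highest-mean probe set, lower Sf3a and Sf3b genes went from 4 to 2, higher Prpf genes from 2 to 0 and all higher member genes from 2 to 0. Of other splicing genes, 32 lower became 6, 4 and 16 with cyclic loess, quantile normalization and an intensity trend, and 23 to 42 with 1 array left out. The 1 higher became 5 and 5 with both normalizations, 0 among brighter probe sets, 0 without both arrays numbered 3, 0 with the highest-mean probe set and 1 to 2 with 1 array left out. Apart from cyclic loess and the highest-mean probe set, the shares of all genes called under these settings are not given.

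Directions turned in 12 of 471 comparisons over 34 named probe sets. With cyclic loess and quantile normalization these were Snrpc 1416197_at (0.014 and 0.037) and Prpf19 1419839_x_at (0.030 and 0.050), 1449635_at (0.033 and 0.057) and 1456531_x_at (0.080 and 0.094). Quantile normalization also turned Snrpe (0.020) and Sf3b1 (0.0082). With 1 array left out, Hnrnpab 1426114_at ran from −0.76 to 0.30 and 1459880_at from −0.052 to 0.016, both turning without OVX + E2 replicate 3. The cause was not tested.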
